A study of Canis lupus familiaris with 6 samples.

Results

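The ATP-binding cassette (ABC) transporters of subfamilies A, B, C, D and G and the organic ion carriers SLC22A and SLCO were examined in RasV12-transformed kidney epithelial cells with and without normal neighbours. Members were all genes whose name in the array annotation starts with ABCA, ABCB, ABCC, ABCD, ABCG, SLC22A, SLC47A or SLCO, with SLCO2A1 left out. This gave 53 genes on 78 probes, out of 34378 names on 43603 probes, and 1 probe stood for each gene, the one with the highest mean signal. For 16 genes there was more than 1 probe to choose from.

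ABC transporters use ATP to move lipids, bile salts, conjugated metabolites and drugs across membranes, and most of them export. SLC22A and SLCO carriers, which include the OCT, OAT and OATP proteins, take up organic cations, organic anions, steroids and thyroid hormone without ATP. In kidney tubules the carriers on the blood side and the ABC pumps on the urine side together secrete drugs and waste, and MDCK cells are widely used to assay such transport, with canine ABCB1 as a known native pump.

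Madin-Darby canine kidney (MDCK) cells are an epithelial line from the dog. MDCK-pTR GFP-RasV12 cells express RasV12, an oncogenic Ras tagged with green fluorescent protein, from a promoter that tetracycline switches on, and the control group carried it too. After 24 h with tetracycline the cells were sorted for GFP, 3 samples from RasV12 cells cultured alone and 3 from RasV12 cells mixed with normal MDCK cells, and each was hybridised to 1 Agilent canine array in 1 colour. The labels give 10 MDCK cells per RasV12 cell for mixed 1 and mixed 3 but 100 for mixed 2, and their extraction text names a β-catenin mutant line that the sample titles do not. They do not say whether samples of a group came from separate cultures, so that p-values measure the spread between these samples, which may be technical.

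The probes below are shown because the results turn on them: the 3 ABCB1 probes, which lie apart in 1 gene, the probe of its neighbour ABCB4, and the probes of 2 genes that were higher in mixed culture, ABCA1 and SLCO4A1. Positions are those of the array annotation (canFam3), which does not say in which exon a probe lies. Each sequence is given 5′ to 3′ on the strand of the transcript, all in lower case since no letters are singled out. The SLCO4A1 probe of 60 bases spans 261 bases of genome.
ABCB1, brightest probe, minus strand, chr14:13645347-13645406: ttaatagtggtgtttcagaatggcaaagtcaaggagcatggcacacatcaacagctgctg
ABCB1, minus strand, chr14:13661702-13661761: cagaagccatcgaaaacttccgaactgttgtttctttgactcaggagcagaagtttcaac
ABCB1, minus strand, chr14:13683018-13683077: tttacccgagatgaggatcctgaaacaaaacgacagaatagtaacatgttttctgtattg
ABCB4, minus strand, chr14:13548598-13548657: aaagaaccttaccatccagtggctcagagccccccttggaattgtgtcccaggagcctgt
ABCA1, minus strand, chr11:60765015-60765074: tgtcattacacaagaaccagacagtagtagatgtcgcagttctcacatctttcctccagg
SLCO4A1, plus strand, chr24:46557592-46557852: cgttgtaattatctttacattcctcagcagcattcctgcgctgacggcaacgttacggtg
ABCB1 and ABCB4 are close paralogs, and the annotation of the brightest ABCB1 probe also lists the Ensembl transcript to which the ABCB4 probe is assigned, so signal shared between the 2 genes was not separated here.

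The 75th percentile of processed intensity lay between 592 and 699.6 units on the arrays, 60.8% to 66.4% of probes were well above background, and no probe was saturated. Every intensity below is scaled so that all arrays have the same 75th percentile of 638.6 units, and intensities of different probes are not comparable with each other. All alone arrays were on one slide and all mixed arrays on another, and the recorded scan differed between the groups in the same way. An effect of the slide or scan and one of the neighbours therefore cannot be told apart. Of 9 kidney epithelial markers listed, 8 were on the array, and all 8 were above background on the 6 arrays. Of 7 proximal tubule markers, 4 were above background on every array and LRP2 on none. The same held for 5 of 8 distal tubule and collecting duct markers, with UMOD, SLC12A3 and CALB1 on none. AQP2, the water channel of the collecting duct, was the only gene of these 3 lists past the threshold (log2 difference 0.36, SE 0.06, adjusted p = 0.0248, limma). By list this was 0 of 8, 0 of 5 and 1 of 5 tested genes, against 11.2% of all probes tested. CUBN, a proximal tubule receptor, joined it with the replicate block (0.43, adjusted p = 0.0844 without it and 0.0460 with it), a fit that called 10.6% of all probes.

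Which transporter probes gave a signal in the RasV12 cells was read from the scanner software's call of signal well above background. Of the 53 genes, 31 were above background on all 6 arrays, 7 on 1 to 5 arrays and 15 on none, and for those 15 no other probe of the gene was above background either. The ABC families were detected more completely, with 23 of 33 genes on every array against 8 of 20 carrier genes. This was a description of these probes, without a test. The same call also marked the leukocyte marker CD79A and the endothelial marker VWF on all 6 arrays, and PTPRC and COL3A1 on none. A call, above all on a dim probe, therefore does not by itself establish that the cells express the gene.

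**Figure D1:**
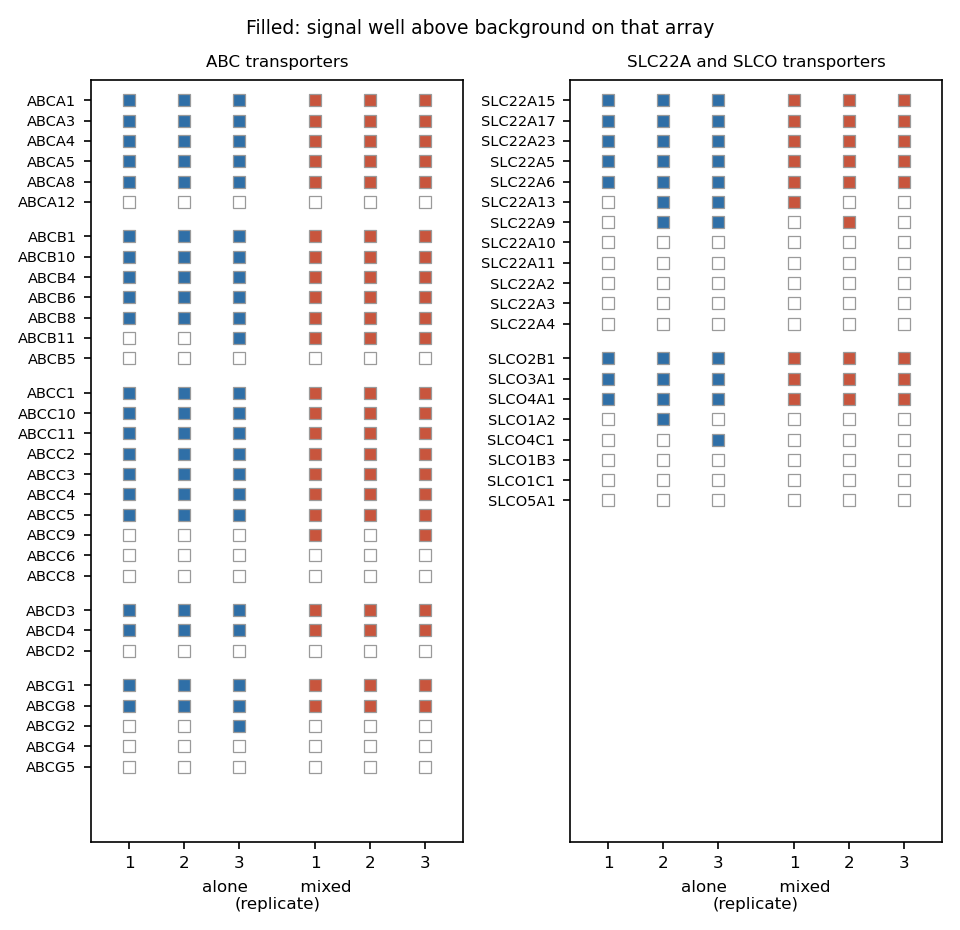
Signal well above background for 51 transporter genes (rows, by family) on each array (columns, alone 1 to 3 in blue and mixed 1 to 3 in red). A filled square marks a detected gene; 29 genes are filled throughout and 15 are empty throughout.

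Of the 12 SLC22A carriers, 5 were above background on every array, 2 on some and 5 on none. SLC22A2 and SLC22A3, the organic cation transporters OCT2 and OCT3, and SLC22A4, the ergothioneine carrier OCTN1, were above background on 0 of 6 arrays. SLC22A6, the organic anion transporter OAT1, was detected on all 6, as was SLC22A5, the carnitine carrier OCTN2. SLC22A8, SLC47A1 and SLC47A2 were not analysed here.

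ABCG2, the breast cancer resistance protein, was close to the detection limit. Its scaled intensity was 8.88, 10.6 and 11.2 in RasV12 cells alone and 8.67, 6.44 and 8.94 in mixed culture, and only alone 3 was above background. The kidney carrier SLCO4C1 read 16.1, 9.41 and 20.5 alone and 9.03, 3.43 and 4.25 mixed, again with only alone 3 above background. All 3 mixed arrays were below the alone arrays for SLCO4C1, whereas the groups overlapped for ABCG2, and neither gene was tested because no group was above background throughout.

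ABCC9, the sulfonylurea receptor SUR2, was above background on mixed 1 and mixed 3 only. Its scaled intensity was 11.1, 2.91 and 2.42 alone and 26.8, 3.39 and 18.8 mixed, so the groups overlapped. SLCO1A2 reached 43.8 on alone 2 and 2.48 to 3.87 on the other arrays. ABCG5 was at background on every array, whereas ABCG8, its partner in the sterol export heterodimer, was detected on all 6. These calls do not establish that the cells express ABCG8 without ABCG5. No gene was above background on all arrays of 1 group and on none of the other.

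To ask which transporters differed when normal cells were present, mixed culture was compared with culture alone for the 32 genes that the scanner called above background throughout one or both groups. With limma (two-sided, Benjamini-Hochberg over all 26534 probes tested), 6 of the 32 differed at an adjusted p under 0.05, or 18.75%, against 11.2% of all probes tested. ABCA1, ABCC11, ABCB6 and SLCO4A1 were higher in mixed culture (4 genes, against 5.5% of all probes), and ABCB1 and ABCB4 were lower (2 genes, against 5.72%). Another scaling changed this balance, with 2 higher and 2 lower after spike-in scaling and 3 and 3 after normexp correction. Of all 26534 probes, these settings called 1004 and 3977, against 2978 in the main fit. With 1 probe per name, 10.9% of all names were called, and at an unadjusted p under 0.05 there were 11 of 32 transporters against 31.4% of probes.

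There was no common direction. In mean, 18 of the 32 genes were higher and 14 lower in mixed culture. The median log2 difference was 0.08 against -0.0037 over all probes tested (-0.078 for the transporters with spike-in scaling), and the median size of the difference was 0.22 against 0.17. The SD between replicates was also larger, with a median of 0.17 for the transporters and 0.13 for all probes. In 14 genes the 3 mixed and 3 alone values did not overlap, 7 higher and 7 lower (43.75%, against 37.2% of all probes, 17.8% higher and 19.4% lower).

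**Figure D2:**
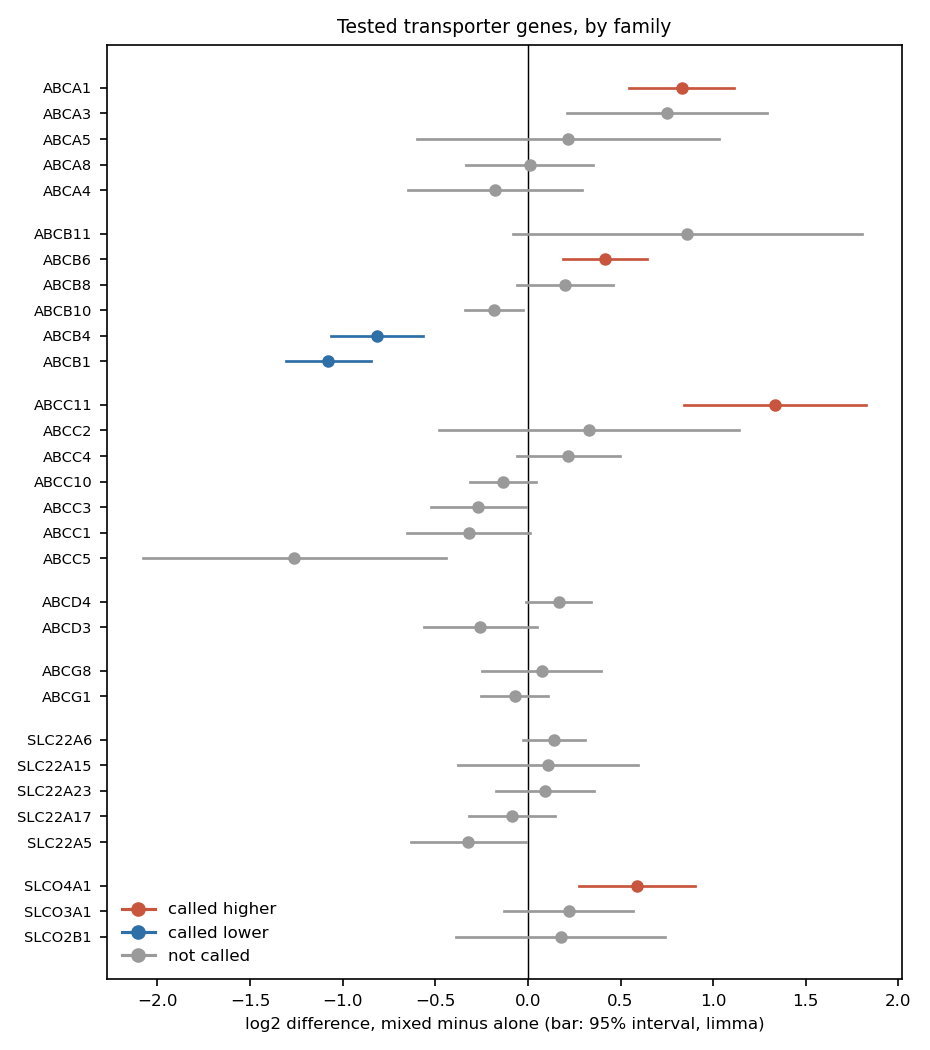
Log2 difference in mixed minus alone (horizontal axis) of 30 tested transporter genes, by family, with 95% intervals from limma. The 4 genes called higher are red, the 2 called lower are blue, and intervals are widest for genes such as ABCC5 and ABCB11, whose alone arrays differed among themselves.

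ABCB1, or P-glycoprotein, exports a wide range of drugs and was lower in RasV12 cells grown among normal cells. Its scaled intensity was 1717, 1908 and 1964 in RasV12 cells alone and 967, 817 and 868 in mixed culture. Every mixed array lay below every alone array, and the gap was several times the spread within either group. The log2 difference was -1.08 (SE 0.10, n = 3 against 3), or 2.11-fold higher alone, with an adjusted p of 0.0103 in limma. As each array measured RNA from many sorted cells, fewer cells with the transcript and less RNA per cell cannot be told apart.

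The other ABCB1 probes were also lower in mean. The probe at chr14:13661702-13661761 read 27.4, 47.3 and 43.5 alone and 12.7, 15.4 and 18.0 mixed. It was above background on only 1 of the 3 mixed arrays, with groups that did not overlap, and differed by -1.33 on the log2 scale (SE 0.23, limma adjusted p = 0.0234). The probe at chr14:13683018-13683077 read 31.3, 151.2 and 120.7 alone and 55.3, 36.9 and 39.0 mixed. Here alone 1 lay below all mixed arrays, and the difference of -0.95 (SE 0.57) did not pass the test (adjusted p = 0.306, limma). When all probes of a gene were averaged, ABCB1 had a log2 difference of -1.12 and an adjusted p of 0.0533.

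ABCB4, which flips phosphatidylcholine across the membrane in bile formation, lies next to ABCB1, with their probes 96.7 kb apart. Its probe read 143.4, 159.7 and 130.4 alone and 74.9, 83.4 and 87.9 mixed. The groups did not overlap. The log2 difference was -0.81 (SE 0.10), or 1.76-fold higher alone, with an adjusted p of 0.0159 in limma. On signals corrected for background with normexp the difference was -0.45. Both calls depended on single arrays, since without alone 2, alone 3, mixed 2 or mixed 3 in turn the adjusted p was 0.0508 to 0.0733 for ABCB1 and 0.0683 to 0.0750 for ABCB4, at log2 differences of -1.07 to -1.02 and of -0.89 to -0.74.

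**Figure D3:**
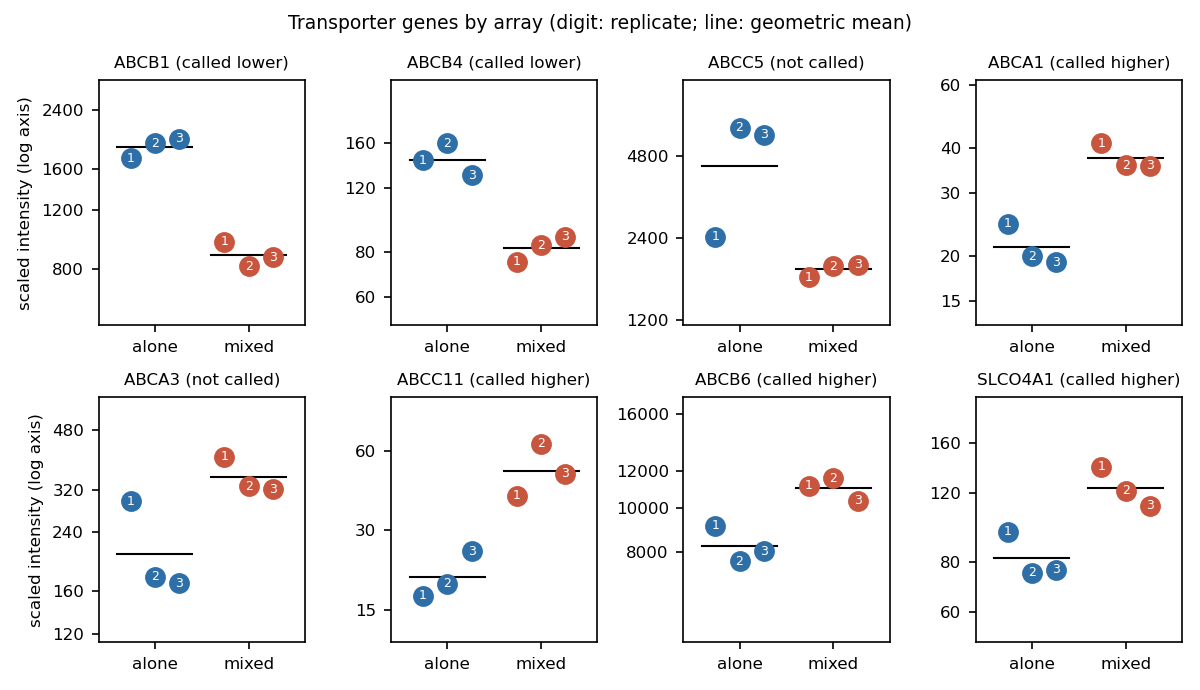
Scaled intensity (vertical log axes, which differ between panels) of 8 transporter genes on each array, with the replicate number in the point and a line at the geometric mean of each group. Alone (blue) and mixed (red) do not overlap for any of the 8, and alone 1 stands apart from alone 2 and 3 for ABCC5 and ABCA3.

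Other probes around ABCB1 and ABCB4 were lower in mean as well, in a comparison chosen after their values were seen. Within 500 kb of the brightest ABCB1 probe the array holds 20 probes, of which 16 were tested. All 16 were lower in mean in mixed culture, against 50.6% of all probes tested, and 4 were called lower (against 5.72% of all probes) and 0 higher. Of those 4 calls, 3 were on the ABCB1 and ABCB4 probes that prompted the comparison. Leaving these genes out, 1 of the remaining 12 probes was called (8.33%), and the groups did not overlap, all lower, in 6 of the 12 (against 19.4% of all probes). The 12 probes, on 10 names, had a median log2 difference of -0.32. Some of these probes share a gene. Others with different names lie close together, at -268.3 to -266.9 kb and at 288.2 to 290.7 kb from the brightest ABCB1 probe. The names therefore stand for fewer separate sites, and the probes are not independent of each other. All 16 were also lower after quantile normalization, normexp correction or spike-in scaling, and when any single array was left out.

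The neighbour with a call was CROT, a peroxisomal carnitine acyltransferase. Its called probe read 484.5, 508.4 and 508.0 alone and 337.9, 312.0 and 321.0 mixed, without overlap (log2 difference -0.63, SE 0.07, adjusted p = 0.0131, limma). The second CROT probe differed by -0.37 with overlapping groups (adjusted p = 0.230). SLC25A40, a mitochondrial carrier on the other side of ABCB1, differed by -0.64 without overlap on its brighter tested probe. That probe did not pass the test (adjusted p = 0.0582, limma), although it did with the replicate block (0.0456). A second SLC25A40 probe differed by -0.36 with overlapping groups and was not called either way (adjusted p = 0.128, and 0.0749 with the block). DBF4, at the far end, differed by -0.11 (adjusted p = 0.301).

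**Figure D4:**
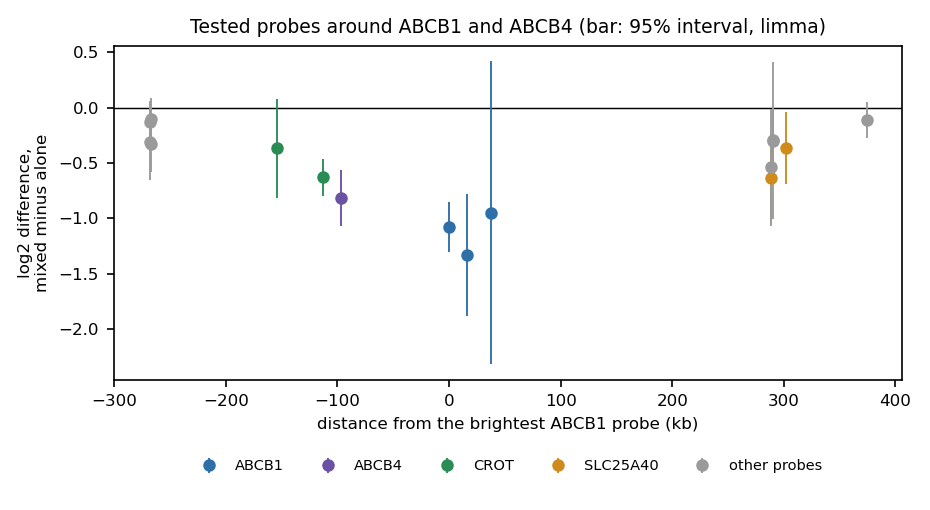
Log2 difference in mixed minus alone (vertical axis, 95% intervals from limma) of the 16 tested probes by their distance in kb from the brightest ABCB1 probe. All points lie below 0, and the ABCB1 and ABCB4 points are the lowest.

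ABCA1, which loads cellular cholesterol onto apolipoprotein A-I, was higher in mixed culture from a low signal. Scaled intensities were 24.7, 20.0 and 19.3 alone and 41.4, 35.9 and 35.8 mixed, without overlap. The log2 difference was 0.83 (SE 0.12), or 1.78-fold higher in mixed culture (adjusted p = 0.0183, limma). After normexp correction it was 0.30 and no longer called (adjusted p = 0.0569), and without alone 2, alone 3, mixed 2 or mixed 3 in turn the adjusted p was 0.0782 to 0.0839. ABCG1, which passes cholesterol on to HDL particles, read 86.6, 82.1 and 77.1 alone and 78.4, 79.9 and 75.4 mixed. The groups overlapped, with a difference of -0.07 (95% interval -0.25 to 0.11).

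ABCC11, or MRP8, exports lipophilic anions and steroid conjugates, and was higher in mixed culture. It read 16.9, 18.8 and 25.0 alone and 40.6, 63.9 and 49.1 mixed. All mixed arrays were above all alone arrays. The log2 difference was 1.33 (SE 0.21), or 2.52-fold higher in mixed culture (adjusted p = 0.0194, limma). As for ABCA1 the signal was low, and normexp correction brought the difference to 0.52 (adjusted p = 0.0118). Leaving out alone 2, alone 3, mixed 2 or mixed 3 gave differences of 1.16 to 1.49 and adjusted p-values of 0.0733 to 0.0875.

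SLCO4A1, an OATP that carries thyroid hormone, was the only uptake carrier called. It read 95.6, 75.2 and 76.6 alone and 139.4, 121.2 and 111.0 mixed, without overlap. The log2 difference was 0.59 (SE 0.13), or 1.50-fold higher in mixed culture (adjusted p = 0.0382, limma). ABCB6, which transports porphyrins, read 9139, 7649 and 8038 alone and 11156, 11569 and 10342 mixed, without overlap. Its rise was small, at 0.42 (SE 0.09) or 1.33-fold (adjusted p = 0.0402), and with the replicate number as a block it was not called (adjusted p = 0.0542). Both calls held without alone 1 and were lost without any other single array, at adjusted p-values of 0.0841 to 0.137 for SLCO4A1 and 0.0878 to 0.141 for ABCB6. They were also lost with spike-in scaling (adjusted p = 0.0615 and 0.127), and that of SLCO4A1 with quantile normalization (0.0624).

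ABCC5, or MRP5, which exports cyclic nucleotides, was lower in mean in mixed culture without passing the test. Its scaled intensity was 2426, 6091 and 5754 alone and 1717, 1886 and 1909 mixed. The groups did not overlap, but alone 1 was far closer to the mixed arrays than alone 2 and alone 3 were. The log2 difference was -1.26 (SE 0.34, adjusted p = 0.0619, limma). A second ABCC5 probe gave the same order, with 628.3, 1749 and 1681 alone and 448.2, 500.4 and 510.3 mixed, and a difference of -1.34 (SE 0.38, adjusted p = 0.0705). The brighter probe was called with the replicate block (adjusted p = 0.0495), after normexp correction (0.0479) and without alone 1 (0.0029, at a difference of -1.69).

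ABCA3, which fills lamellar bodies with surfactant lipid, was the mirror image. It read 295.9, 177.1 and 169.4 alone and 401.4, 327.5 and 321.2 mixed. Here alone 1 was the high array of its group, though still below the lowest mixed array. The difference was 0.75 (SE 0.23, adjusted p = 0.0786, limma), and it was called with the replicate block (0.0377) and without alone 1 (0.0068, at a difference of 1.01).

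Alone 1 also lay nearest to the mixed mean, of the alone arrays, in 18 of the 32 transporters (56.25%, against 47.2% of all probes tested). Without alone 1, 11 of 34 tested transporters were called, against 26.4% of all probes. Among these were the 6 already named together with ABCA3 and ABCC5, and with SLC22A5 (-0.44) and the peroxisomal ABCD3 (-0.38). Without alone 2, alone 3, mixed 2 or mixed 3, 0 transporters were called by limma, and only 24, 7, 9 and 12 probes of the whole array were called. At an unadjusted p under 0.05 there were 10, 9, 9 and 8 transporters. The share of all probes at that level is not given for these fits, and was 31.4% with all 6 arrays, so these counts are not read as a transporter result. The methods' t-test called 1 transporter, ABCB1, with 10 of 32 at an unadjusted p under 0.05, against 7313 of 26528 probes.

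Of the multidrug resistance-associated proteins, ABCC11 alone passed the test, and the remaining 6 tested ABCC genes had differences of -1.26 to 0.33. ABCC1 (MRP1), a glutathione conjugate pump, read 891.6, 657.0 and 646.6 alone and 622.2, 569.0 and 550.2 mixed. ABCC3 (MRP3), a basolateral pump of glucuronides, read 861.5, 737.2 and 740.5 alone and 724.1, 591.0 and 630.9 mixed. Both were lower in mixed culture without overlap, with differences of -0.32 (SE 0.14, adjusted p = 0.172) and -0.27 (SE 0.11, adjusted p = 0.150) that did not pass limma's test.

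ABCC2 (MRP2), the apical pump of conjugated anions, read 88.5, 123.2 and 142.1 alone and 86.9, 200.6 and 176.9 mixed. In both groups replicate 1 was the low array and the groups overlapped, with a difference of 0.33 (SE 0.34, adjusted p = 0.545). ABCC4 (MRP4), which exports urate and cyclic nucleotides, read 176.6, 223.5 and 204.7 alone and 248.5, 243.5 and 209.4 mixed. The groups overlapped there too, with a difference of 0.22 (95% interval -0.06 to 0.49). ABCC10 differed by -0.14 without overlap (adjusted p = 0.258).

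Within the ABCB family the plasma membrane and the mitochondrial members differed in direction among themselves. The mitochondrial ABCB10 read 4022, 4144 and 4174 alone and 3524, 3680 and 3670 mixed, a difference of -0.18 (SE 0.07) that lay outside the spread of both groups but did not pass the test (adjusted p = 0.116, limma). ABCB8, also mitochondrial, differed by 0.20 with overlapping groups. ABCB11, the bile salt export pump, read 19.3, 6.39 and 14.7 alone and 25.0, 18.4 and 23.6 mixed. It was above background on 1 of 3 alone arrays and on all 3 mixed arrays, and the overlapping groups gave a difference of 0.86 (SE 0.39, adjusted p = 0.190).

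None of the remaining ABCA, ABCD and ABCG genes passed the test. ABCA4, ABCA5 and ABCA8 had differences of -0.18, 0.22 and 0.0088, all with overlapping groups, and the 95% interval of ABCA5 ran from -0.60 to 1.03. Of the peroxisomal and lysosomal ABCD genes, ABCD3 differed by -0.26 (95% interval -0.56 to 0.05), with overlap. ABCD4, which is needed for cobalamin to leave lysosomes, read 1612, 1593 and 1513 alone and 1672, 1794 and 1836 mixed. It was higher on every mixed array, by 0.17 (SE 0.07), without passing the test (adjusted p = 0.174, limma). ABCG8 differed by 0.07 with overlapping groups.

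None of the 5 tested SLC22A carriers was called by limma, and at an unadjusted p under 0.05 SLC22A5 alone was. SLC22A5 read 48.1, 64.1 and 60.2 alone and 49.7, 41.4 and 46.3 mixed. Alone 1 lay among the mixed arrays, and the difference was -0.32 (SE 0.13, adjusted p = 0.150), becoming -0.44 without alone 1 (adjusted p = 0.0296). SLC22A6 read 50.8, 53.5 and 52.1 alone and 57.8, 54.9 and 59.9 mixed, higher on every mixed array by 0.14 (SE 0.07, adjusted p = 0.225), although its sign turned with spike-in scaling. SLC22A15, SLC22A17 and SLC22A23 differed by 0.11, -0.09 and 0.09. The other tested SLCO genes, SLCO3A1 and SLCO2B1, differed by 0.22 and 0.18 with overlapping groups.

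Where a gene had more than 1 tested probe, the probes differed in the same direction for most genes, in 5 of 7. The paired values were 0.33 and 0.44 for ABCC2, -0.18 and -0.40 for ABCB10, and 0.17 and 0.15 for ABCD4. The probes disagreed in sign for ABCD3, at -0.26, -0.30 and 0.06, where the odd probe was the dimmest of the gene.

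**Figure D5:**
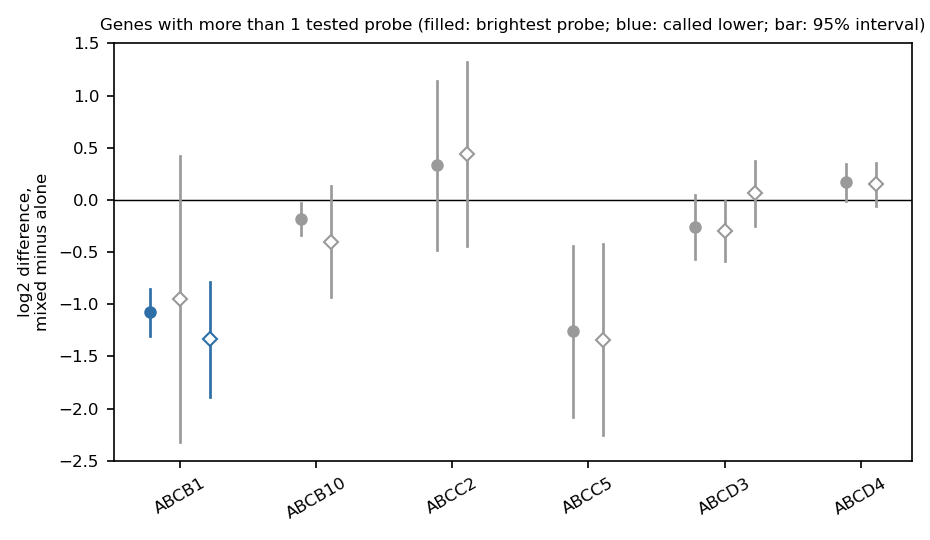
Log2 difference in mixed minus alone (vertical axis, 95% intervals from limma) of every tested probe of 6 genes with more than 1 tested probe. Filled points are the brightest probe of a gene and blue marks probes called lower; the ABCB1 and ABCC5 probes all lie below 0, and ABCD3 has 1 probe above 0.

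Genes that work with these transporters were read from lists drawn up with earlier results of these data known. Of 24 transcriptional regulators on the array (25 listed), 21 were tested, with a median difference of -0.05, and 1 was higher and 1 lower, a share of 9.52% against 11.2% of all probes tested. HNF4G, a nuclear receptor of kidney and gut, read 90.8, 101.7 and 95.4 alone and 138.7, 130.8 and 123.7 mixed (0.45, SE 0.08, adjusted p = 0.0251, limma). HIF1A, the oxygen-regulated factor, fell by 0.54 (SE 0.11, adjusted p = 0.0349). PPARGC1A, a coactivator of nuclear receptors, differed by 1.33 (SE 0.38) without overlap, and was called only with the replicate block (adjusted p = 0.0685 without it and 0.0339 with it), which made 2 regulators higher and 1 lower. NR1I2, the xenobiotic receptor PXR, was at background on all 6 arrays. NR1H2 and NR1H3, the oxysterol receptors LXRβ and LXRα that control ABCA1, differed by -0.016 and 0.04.

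Of 23 scaffolds and partner carriers, 18 were tested, with a median of -0.01, and 1 was higher and 1 lower, or 11.1%, close to the 11.2% of all probes. SLC29A2, the equilibrative nucleoside transporter ENT2, read 34.9, 39.5 and 34.7 alone and 53.2, 82.0 and 78.5 mixed (0.95, SE 0.17, adjusted p = 0.0258, limma). Moesin (MSN), which ties membrane proteins to actin, fell by 0.30 (SE 0.07, adjusted p = 0.0411), a call lost with the replicate block (0.0598), whereas its relative ezrin (EZR, -0.33) was called only with the block (0.0556 without it and 0.0499 with it). Among 7 other ABC proteins, 6 were tested (median -0.07), and 1 was higher and 1 lower, or 33.3% against 11.2% of all probes. The peptide transporter TAP1 rose by 0.79 (SE 0.15, adjusted p = 0.0280, limma, and 0.0528 with the replicate block). ABCE1, a ribosome recycling factor that transports nothing, fell by 0.39 (SE 0.07, adjusted p = 0.0260, limma).

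A further list held conjugating enzymes together with other enzymes of drug and glutathione metabolism, not all of which make conjugates that ABC pumps export. Of its 32 genes, 27 were on the array and 22 were tested, with a median of 0.11. Of these, 3 were called, or 13.6% against 11.2% of all probes. The phenol sulfotransferase SULT1A1 (0.36, SE 0.07, adjusted p = 0.0254) and the ceramide galactosyltransferase UGT8 (0.45, SE 0.11, adjusted p = 0.0485) rose. The thiopurine methyltransferase TPMT fell by 0.71 (SE 0.11, adjusted p = 0.0190, limma). UGT1A6, a phenol glucuronosyltransferase, differed by 0.68 and was called only with the replicate block (adjusted p = 0.0767 without it and 0.0468 with it).

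Normal MDCK cells that passed the sort would carry no induced RasV12, so genes of Ras-MAPK output were read beside these results. Of 12 listed genes, 8 were on the array and tested, with a median difference of -0.37. EPHA2 (-0.71, adjusted p = 0.0242, limma) and EREG (-0.72, adjusted p = 0.0103) were lower in mixed culture and none was higher at the threshold. This was 25% of the tested genes of the list, against 11.2% of all probes called and 5.72% called lower. SPRY4 (-0.58), DUSP5 (-0.56) and DUSP6 (-0.19) were lower in mean without passing the test, and HBEGF was level (-0.00019, adjusted p = 0.999, limma). SPRY2 differed by 0.28 and ETV5 by 0.10 (adjusted p = 0.307 and 0.675, limma). Sums of scaled intensity, here and below, weigh the brightest probes most and so do not measure a list as a whole. The sum of this list was 64424 to 68695 alone and 54240 to 64983 mixed, of which the DUSP6 probe made up 84.0% to 86.9%. Without DUSP6 it was 8719 to 9909 alone and 7835 to 9731 mixed. None of the 8 was at background on every array. Their part in the lower ABCB1 and ABCB4 signal and in the higher genes was not tested. Of the 4 leukocyte markers, CD79A was above background on all 6 arrays, CD3E on 5, ITGAM on 2 and PTPRC on none, and the list summed to 95.04 to 105.2 alone and 86.5 to 108.9 mixed. Of the 5 fibroblast and endothelial markers, COL1A1, PDGFRB, PECAM1 and VWF were above background on all 6 and COL3A1 on none. Without VWF, which made up 83.8% to 87.7% of it, that list summed to 513.6 to 571.9 alone and 570.2 to 592.7 mixed. By limma 0 genes of either list were called, and 0 of the 6 tested had an unadjusted p under 0.05.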

How the data were processed

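RNA of sorted RasV12 cells (3 alone, 3 mixed, grouped from the titles) was measured on 1-colour canine Agilent arrays. The authors deposited scanner intensity values per spot from Feature Extraction 10.10.1.1, background-subtracted and detrended within each array, with raw mean and background signals and flags. They also deposited a log2 table of 26529 probes, in which every column is the log2 processed signal less 1 value per array, the 75th percentile to within 0.01. The paper's methods name an unpaired t-test and no normalization.

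Control spots and outlier spots were left out, spots of a probe averaged, and log2 values taken minus each array's 75th percentile. The 26534 probes that were above background throughout one group or both were tested with lmFit and eBayes (limma 3.58.1, R 4.3.3), two-sided, Benjamini-Hochberg adjusted, threshold 0.05. Tables used Python 3.11.15, pandas 2.3.3, numpy 2.4.6 and scipy 1.17.1, and plots matplotlib 3.10.9. On simulated data of 26528 probes with 200 changed, 76% of 2-fold and 94% of 4-fold changes were recovered with 6 false calls. The simulated noise was independent between probes and arrays, with no slide effect and no array that stood apart. These rates therefore need not hold for the measured arrays.

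Members and gene lists were chosen with earlier results of these data known. Genes were named if called, if among the 3 largest rises or falls on probes above background throughout, if on a set list of kidney, drug and lipid transporters, or if called in a partner list. Other tested members were added to describe each family. A few members enter the counts only, and their single values are not reported here.

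Arrays with the same replicate number, which is also the position on the slide, correlated after removal of group means at 0.349, 0.162 and 0.296 (26528 probes), each over 0.1, against -0.329 to 0.238 for different numbers. Alone 2 correlated more with mixed 3 (0.238) than with mixed 2 (0.162), so these values do not establish that the numbers pair samples. The number entered 1 alternative fit as a replicate block, although the labels leave its meaning unsaid. The settings also changed in turn were spike-in scaling (7 controls), quantile normalization, normexp (offset 50), the filter (none, or detection on all 6 arrays), the deposited table as input, the methods' t-test, the mean over a gene's probes, and each array left out. The number of arrays limits the precision.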

Additional observations from a re-analysis of the deposited data

How the results depend on the processing

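The 6 called transporters kept their direction under all 15 alternatives run for each. ABCB1, ABCB4 and ABCC11 were called in 9 of the 15, ABCA1 in 8, and ABCB6 and SLCO4A1 in 6. Over all 15 genes followed, 174 values kept direction and side of the threshold, 43 lost a call, 6 gained one and 2 turned sign: ABCG1 with normexp (0.0010) and SLC22A6 with spike-in scaling (-0.020), neither of them called. Of the 26534 probes, 2978 were called (1459 higher, 1519 lower). Spike-in scaling, which moved the median log2 difference of all probes by -0.16, called 1004 (303 higher, 701 lower) and gave a transporter median of -0.078 with 4 calls (2 higher, 2 lower). Without a filter, 12 of 43603 probes and 0 of 53 transporters were called by limma, with a transporter median of 0.14. At an unadjusted p under 0.05 there were 9 transporters, without a share of all probes to set beside them. The methods' t-test called 828 probes (7313 unadjusted) and 1 transporter. Leaving out each array in turn gave 7 to 7335 probes, 0 to 11 transporters and medians of -0.0033 to 0.087. The fewest probes were called without alone 3, the most probes and transporters without alone 1, and the lowest median came without alone 2. With the replicate block 2825 probes and 7 transporters were called, gaining ABCA3 and ABCC5 and losing ABCB6, and no other transporter call changed. The deposited table called 6 transporters and 2978 of 26529 probes, and detection required on all 6 arrays called 6 and 3039 of 25529. Normexp also called 6 transporters, but with more probes of the whole array, 3977 of 26534. Quantile normalization called 5 transporters and 2991 probes, and the mean over probes called 5 transporters. A slide block could not be fitted because each slide held 1 group. Signals near background limit ABCA1 and ABCC11, whose differences were 0.30 and 0.52 with normexp. The cause of these changes was not tested.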
